A study of Drosophila melanogaster with 36 samples.

Results

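The insect cuticle is a layered matrix of chitin and proteins that the epidermis secretes over the body, the foregut, the hindgut and the tracheae, and its protein component comes from several large gene families. Expression of 103 Drosophila melanogaster cuticle protein genes, of 11982 genes with a probe set for that gene alone, was followed in whole adult male flies expressing an ALS-linked or a control SOD1 transgene. The genes were those whose current symbol begins with Cpr and a digit, Twdl, Ccp84, Lcp and a digit, or Edg, and each was represented by the single-gene probe set with the highest mean over all 36 arrays. Most Cpr proteins carry the Rebers and Riddiford consensus, a chitin-binding stretch, and their symbols give the cytological band of the gene. The Tweedle (Twdl) proteins shape the body, and a dominant TwdlD mutation makes larvae and pupae short and stout. The Lcp genes were named for larval cuticle, the Ccp84 genes for a cluster at band 84A, and the Edg genes for their dependence on the moulting hormone ecdysone before pupal cuticle forms. In adult flies most of the cuticle is laid down before and soon after eclosion, and layers of the thick inner cuticle are added during the first days of adult life.

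The flies expressed 1 of 2 UAS transgenes, wild-type Drosophila SOD1 (dSOD1, the control) or mutant human SOD1 with the G85R change (G85R, found in familial ALS). Expression was driven with D42-Gal4 in motoneurons (MN), with M1B-Gal4 in glia, or with both drivers together (MN+glia). Flies were taken at 5 days (5d) or 45 days (45d), which gave 12 groups of 3 biological replicate arrays, each from a pool of 40 whole males hybridized to an Affymetrix Drosophila Genome array. All groups carried at least 1 Gal4 driver and 1 SOD1 transgene, and flies with a driver and no transgene were not among these arrays. A difference between drivers combines the driven cells with the genetic background of each Gal4 line, and a difference between G85R and dSOD1 combines the protein with the line that carries it, so neither pair can be told apart here. The transgenes act in motoneurons and glia while the RNA came from whole flies, and in such samples fewer cells of a type and less RNA per cell cannot be told apart.

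Values are log2 signals that the authors had normalized with RMA, a method that places all arrays on one distribution, and array medians ran from 6.38 to 6.53. The probe set of a gene fixes its brightness, so levels are compared between groups and not between genes. Replicate 2 of MN+glia G85R 5d stood apart in RNA quality. Its 3-prime signal exceeded its 5-prime signal by 5.72 for the actin control and by 4.29 for GAPDH, against 2.39 to 3.25 and 1.61 to 2.17 on the other 35 arrays, and the eIF-4a control stood apart likewise (6.34 against 2.34 to 3.28). Its value for 18S rRNA, -0.37, lay within the -0.90 to 0.25 of the other arrays. This array was left out of the fit, which leaves 2 arrays in that group, and a fit with all 36 arrays was the alternative. The study's methods name a glia group, not an MN+glia group, for the degraded sample. Whether labels of glia and MN+glia G85R 5d arrays were exchanged was not tested, and if they were, the values given here for these groups would belong to the other driver. Genes were tested with limma on 35 arrays with Benjamini-Hochberg adjustment over all 18769 fly probe sets, and "rose" or "fell" means an adjusted p of at most 0.05. Differences are log2 values of G85R minus dSOD1 or of 45d minus 5d, so a fall carries a minus sign, and every adjusted p comes from this limma fit. A call is said to be lost where it no longer passed without an array, with all 36 arrays, in a separate fit on the arrays of its comparison alone, or after cyclic loess normalization. Losses with the replicate number fitted as a block, 8 calls of cuticle genes, are not marked gene by gene. Marker lists of male, female and larval tissues were read as a description of the labelled whole adult males, and since brightness depends on the probe set their levels are not set against one another. The 6 accessory gland markers averaged between 11.7 and 12.7 on the arrays, the 7 testis markers between 9.80 and 10.8, and the 7 female yolk and eggshell markers between 5.30 and 6.05. The 6 larval salivary glue genes stayed between 4.0 and 4.28.

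By chromosome arm, 6 of the 103 genes lie on 2L, 22 on 2R, 39 on 3L, 28 on 3R and 8 on X, per the RefSeq gene table. They comprise 66 Cpr genes, 24 Tweedle genes, 7 Lcp genes, 3 Ccp84 genes and 3 Edg genes. The highest group mean of 37 genes reached a dim limit of 5.77, the 40th percentile of that quantity over fly probe sets, and that of 66 did not, a split that holds 26 Cpr, 7 Tweedle, 2 Ccp84, 1 Lcp and 1 Edg gene on the brighter side. Genes described below that lay under the limit include Cpr47Ea, Cpr50Ca, Cpr62Ba, Cpr62Bc, Cpr64Ac, Cpr92F, Ccp84Ag, Lcp65Ac, TwdlL and TwdlS. Group means of a gene spanned 0.37 at the median, against 0.43 over all fly probe sets. For 14 genes the group means spanned at least 1 log2 unit, that is 2-fold. Such a span was seen in 11.6% of all fly probe sets. Spans of at least 2 occurred in Cpr67Fb (4.08), Cpr72Ec (2.76) and Cpr49Ae (2.04), the genes whose values on every array are plotted with those of Cpr66D, Cpr51A and Cpr97Eb.

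**Figure D1:**
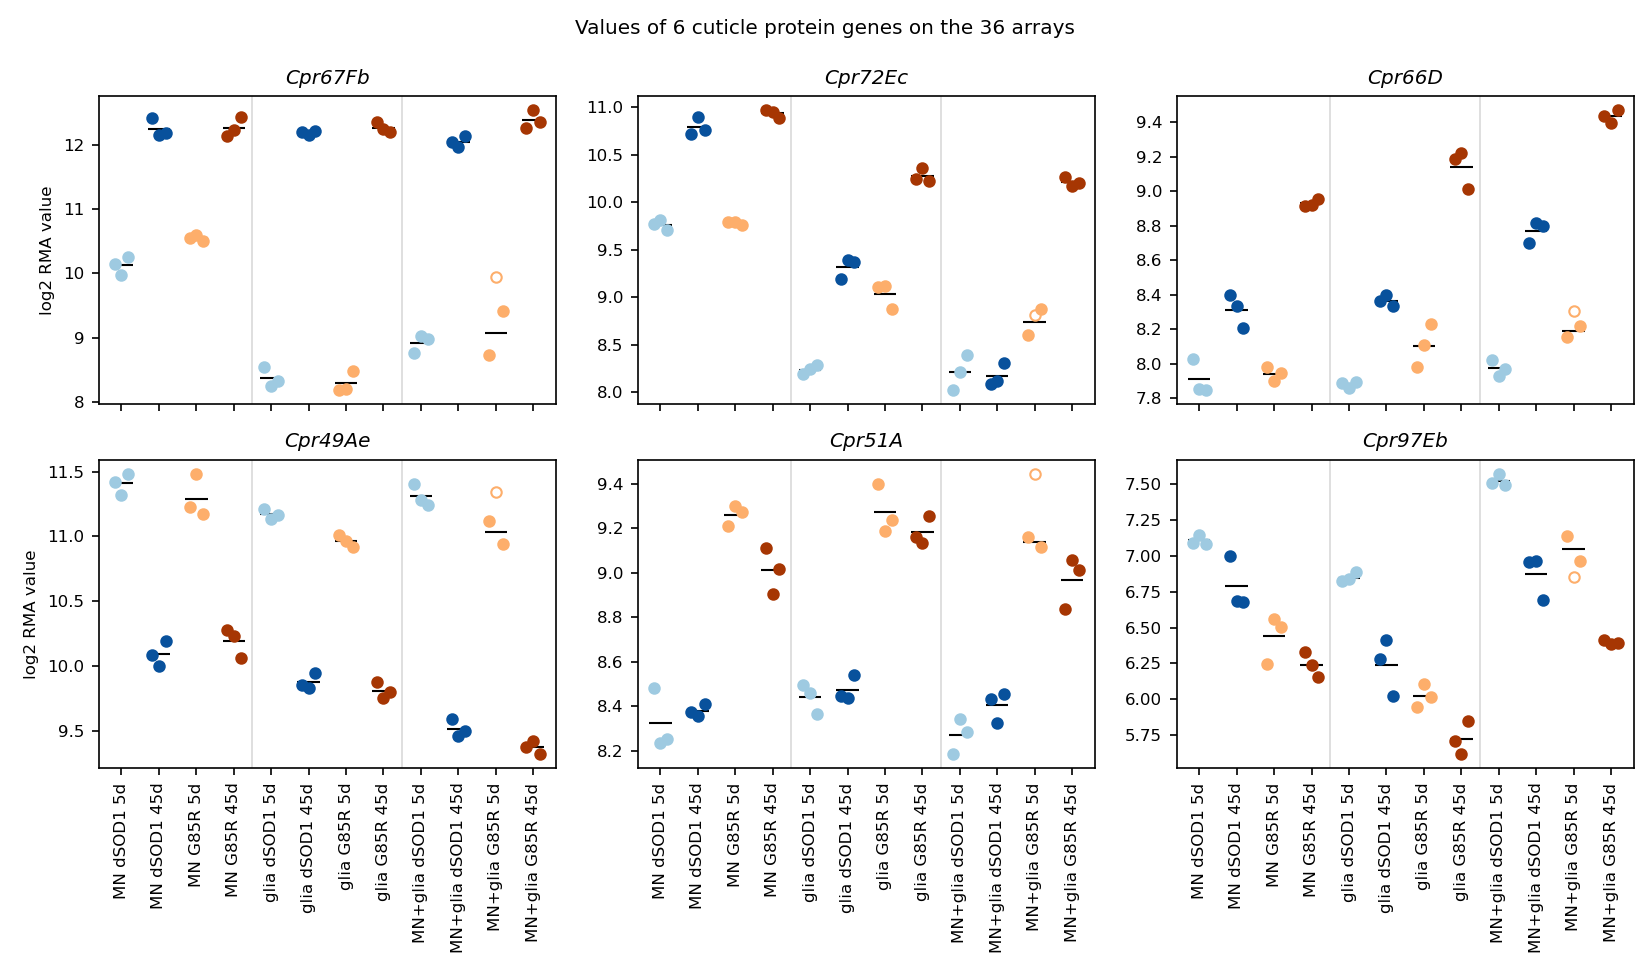
RMA log2 signal (y axis) of 6 cuticle protein genes on each of the 36 arrays, by driver, transgene and age (x axis). Light and dark blue points are dSOD1 flies at 5d and 45d, light and dark orange points are G85R flies at 5d and 45d, black bars are group means over the arrays in the fit, and the open circle is the array with degraded RNA. Cpr67Fb was higher at 45d in every group, Cpr49Ae was lower at 45d in every group, Cpr51A was higher and Cpr97Eb lower with G85R under each driver, and Cpr72Ec in MN+glia rose with age with G85R alone.

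In the 6 comparisons of G85R with dSOD1 and the 6 comparisons of 45d with 5d flies, 47 genes passed the threshold in none, as did 31.7% of all fly probe sets. Of these 47 genes, 39 lay under the dim limit: Cpr11A, Cpr12A, Cpr23B, Cpr35B, Cpr47Eb, Cpr47Ec, Cpr47Ed, Cpr47Eg, Cpr49Ad, Cpr50Cb, Cpr5C, Cpr65Av, Cpr65Eb, Cpr67Fa1, Cpr67Fa2, Cpr72Ea, Cpr72Eb, Cpr76Ba, Cpr76Bb, Cpr78Ca, Cpr97Ea, Edg78E, Edg84A, Lcp65Ad, Lcp65Ae, Lcp65Af, Lcp65Ag3, Lcp9, TwdlB, Twdlbeta, TwdlD, TwdlF, TwdlM, TwdlN, TwdlO, TwdlV, TwdlW, TwdlY and TwdlZ. The other 8, Cpr30F, Cpr64Ab, Cpr64Ad, Cpr65Ea, Cpr73D, Lcp65Aa, TwdlH and TwdlK, were above it. At least 1 age comparison and no G85R comparison was passed by 28 genes, against 39.7% of all fly probe sets: Ccp84Ac, Ccp84Ae, Ccp84Ag, Cpr30B, Cpr31A, Cpr47Ea, Cpr49Aa, Cpr49Ac, Cpr49Af, Cpr49Ah, Cpr64Aa, Cpr65Au, Cpr65Aw, Cpr65Az, Cpr65Ec, Cpr66Cb, Cpr76Bd, Cpr78Cb, Cpr78Cc, Cpr78E, Twdlalpha, TwdlC, TwdlG, TwdlP, TwdlQ, TwdlR, TwdlT and TwdlX. Edg91 was the 1 gene that passed with G85R and in no age comparison, against 2.38%. Comparisons of both kinds were passed by 27 genes, against 26.3%: Cpr100A, Cpr11B, Cpr47Ee, Cpr47Ef, Cpr49Ab, Cpr49Ae, Cpr49Ag, Cpr50Ca, Cpr51A, Cpr56F, Cpr60D, Cpr62Ba, Cpr62Bb, Cpr62Bc, Cpr64Ac, Cpr66D, Cpr67B, Cpr67Fb, Cpr72Ec, Cpr76Bc, Cpr92A, Cpr92F, Cpr97Eb, Lcp65Ac, TwdlE, TwdlL and TwdlS. These classes rest on the threshold in each comparison, and whether the age and G85R differences of a gene differ was not tested. By family, 23 of 66 Cpr genes (34.8%), 3 of 24 Tweedle (12.5%), 1 of 7 Lcp, 0 of 3 Ccp84 and 1 of 3 Edg genes passed in at least 1 G85R comparison, against 28.6% of all fly probe sets. At least 1 age comparison was passed by 40 Cpr (60.6%), 11 Tweedle (45.8%), 1 Lcp, 3 Ccp84 and 0 Edg genes, against 65.9%.

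The first question was which cuticle genes differed between G85R flies and dSOD1 flies of the same driver and age. At 5d, 6 genes rose and 6 fell in MN, where 5.60% of all fly probe sets rose and 4.73% fell. In glia 9 rose and 4 fell beside 3.40% and 3.72% of all probe sets, and in MN+glia 5 rose and 5 fell beside 2.93% and 3.58%. At 45d, 5 rose and 6 fell in MN (6.94% and 5.90% of all probe sets), 8 rose and 6 fell in glia (6.30% and 5.96%), and 7 rose and 5 fell in MN+glia (3.74% and 5.00%). The passing share of cuticle genes ran from 9.71% in MN+glia at 5d to 13.6% in glia at 45d, and the median difference over the 103 genes lay between -0.06 and 0.05. Over the 6 comparisons, 28 genes passed at least once and 75 in none, a result also seen for 71.4% of all fly probe sets. Of the 72 passing differences, 37 stayed past the threshold under every alternative analysis, and 35 were lost when a single array was left out. Single arrays moved some counts by more than 1.5 times, to 7 genes in MN at 5d without MN dSOD1 5d replicate 1, to 8 in glia at 5d without glia dSOD1 5d replicate 2 or 3 or glia G85R 5d replicate 1, and to 4 in MN+glia at 5d without MN+glia G85R 5d replicate 3. With all 36 arrays 16 genes passed in MN+glia at 5d.

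**Figure D2:**
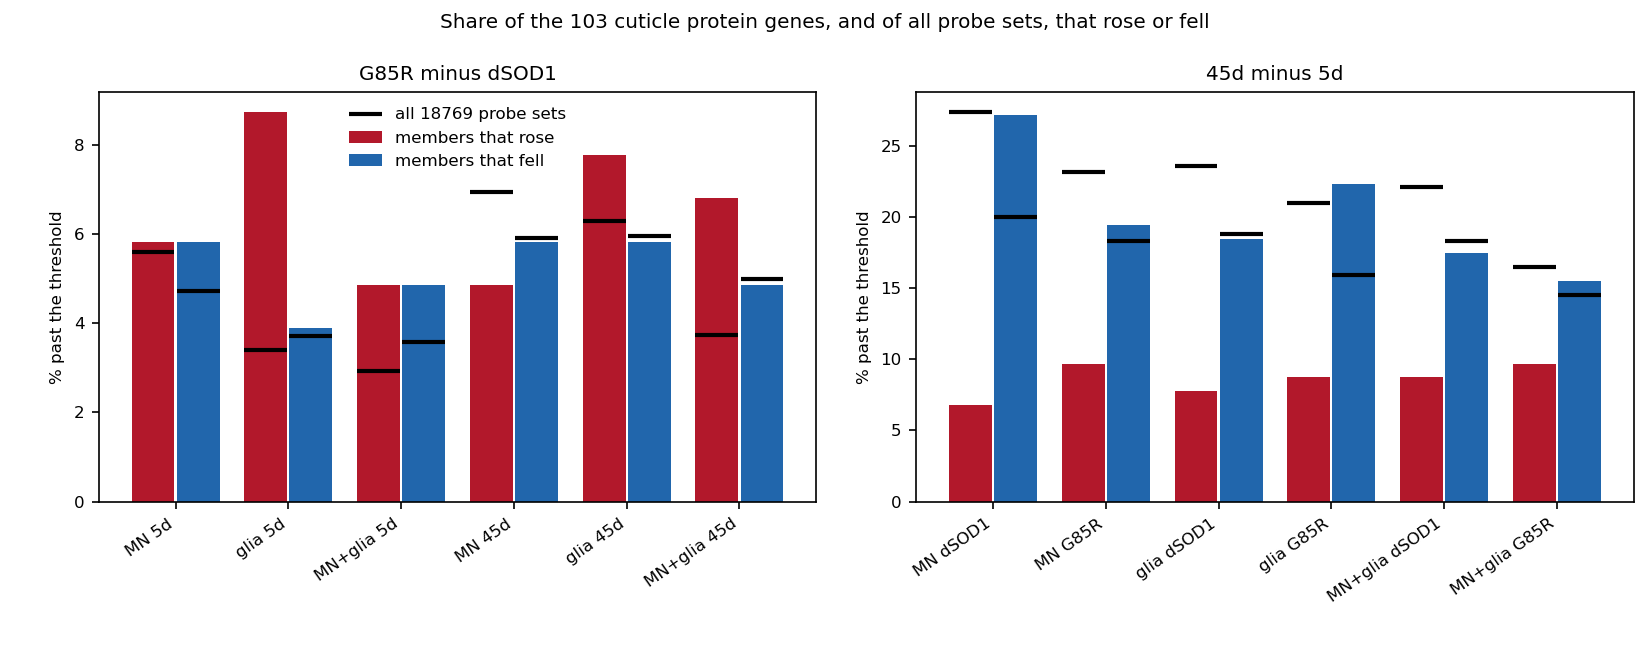
Percent of the 103 cuticle protein genes (y axis) that rose (red bars) or fell (blue bars) in each comparison of G85R with dSOD1 and of 45d with 5d flies (x axis), with black lines for the percent of all 18769 fly probe sets. In the age comparisons the bars for genes that rose stand below the lines, with 7 to 10 of 103 genes rising where 16.5% to 27.4% of all probe sets rose.

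Cpr51A was higher in G85R flies in all 6 comparisons. In MN at 5d its signal was 8.48, 8.24 and 8.25 in the dSOD1 replicates and 9.21, 9.30 and 9.27 in the G85R replicates. In glia at 5d it was 8.50, 8.46 and 8.36 with dSOD1 and 9.40, 9.19 and 9.24 with G85R. In MN+glia at 5d it was 8.19, 8.34 and 8.29 with dSOD1 and 9.16 and 9.12 with G85R, and 9.45 on the array with degraded RNA. Every G85R array was above every dSOD1 array of its driver. The difference was 0.94 ± 0.07 in MN (1.92-fold, adjusted p = 5.5e-11), 0.83 ± 0.07 in glia (adjusted p = 4.6e-10) and 0.87 ± 0.08 in MN+glia (adjusted p = 3.2e-09, 0.97 with all 36 arrays), where ± gives the standard error. At 45d the groups again did not overlap, and the rises were 0.63 ± 0.07, 0.71 ± 0.07 and 0.56 ± 0.07 (highest adjusted p = 9.3e-07). None of these 6 calls was lost when an array was left out, and 0.639% of all fly probe sets rose in all 6 comparisons.

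Cpr62Bb was the other gene that rose in all 6, by smaller amounts. In MN at 45d its signal was 8.22, 8.20 and 8.06 with dSOD1 and 8.71, 8.62 and 8.75 with G85R, a rise of 0.53 ± 0.05 (adjusted p = 1.7e-08). In glia at 45d it was 8.41, 8.41 and 8.32 with dSOD1 and 8.80, 8.86 and 8.79 with G85R, a rise of 0.44 ± 0.05 (adjusted p = 4.7e-07). In both drivers the old G85R arrays were all above the old dSOD1 arrays. The rise was 0.27 ± 0.05 in glia at 5d (adjusted p = 0.0013). Single arrays decided the other 3 calls, which were 0.21 ± 0.05 in MN at 5d (adjusted p = 0.012, a call lost without MN dSOD1 5d replicate 1 or MN G85R 5d replicate 3, and lost in the separate fit), 0.29 ± 0.06 in MN+glia at 5d (adjusted p = 0.0019, a call lost without MN+glia G85R 5d replicate 1, 0.39 with all 36 arrays, and lost in the separate fit) and 0.17 ± 0.05 in MN+glia at 45d (adjusted p = 0.039, a call lost when 6 of its 6 arrays were left out in turn, and lost with all 36 arrays at 0.17 and adjusted p = 0.12, and lost in the separate fit).

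The largest G85R difference of any cuticle gene was that of Cpr72Ec in MN+glia at 45d. Cpr72Ec and Cpr66D are known as structural proteins of the corneal lens, the cuticle of the compound eye. The Cpr72Ec signal was 8.08, 8.12 and 8.31 in old MN+glia dSOD1 flies and 10.27, 10.17 and 10.20 in old MN+glia G85R flies. The G85R arrays stood about 2 log2 units above the dSOD1 arrays, a rise of 2.04 ± 0.08 or 4.12-fold (adjusted p = 7.3e-18). At 5d the same driver gave 8.02, 8.21 and 8.40 with dSOD1 and 8.60 and 8.88 with G85R, a rise of 0.53 ± 0.09 (adjusted p = 0.00026, a call lost without MN+glia G85R 5d replicate 3, 0.56 with all 36 arrays, and lost in the separate fit). In glia the values were 8.19, 8.25 and 8.28 with dSOD1 and 9.11, 9.12 and 8.88 with G85R at 5d, and 9.20, 9.39 and 9.37 and 10.24, 10.36 and 10.23 at 45d. Neither pair of glia groups overlapped, and the rises were 0.80 ± 0.08 (adjusted p = 3.0e-08) and 0.96 ± 0.08 (adjusted p = 5.3e-10). In MN the difference was 0.02 ± 0.08 at 5d (adjusted p = 0.91) and 0.14 ± 0.08 at 45d (adjusted p = 0.31). The 3 measured eye markers, of 6 listed, averaged 11.97 to 12.16 over the 5d groups and 11.95 to 12.16 over the 45d groups.

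Cpr66D, the other lens protein gene, rose with G85R in all 3 drivers at 45d. Its signal was 8.40, 8.34 and 8.20 with dSOD1 and 8.91, 8.92 and 8.96 with G85R in old MN flies. It was 8.36, 8.40 and 8.34 and 9.19, 9.22 and 9.01 in old glia flies. It was 8.70, 8.82 and 8.80 and 9.44, 9.40 and 9.47 in old MN+glia flies. In each driver the lowest G85R value was above the highest dSOD1 value, with rises of 0.62 ± 0.06, 0.78 ± 0.06 and 0.66 ± 0.06 (highest adjusted p = 2.1e-08), none of which was lost without any 1 array. At 5d the differences were 0.03 ± 0.06 in MN (adjusted p = 0.79), 0.23 ± 0.06 in glia (adjusted p = 0.024, a call lost when 5 of its 6 arrays were left out in turn, and lost in the separate fit) and 0.21 ± 0.07 in MN+glia (adjusted p = 0.066, or 0.25 and 0.0082 with all 36 arrays).

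Cpr47Ef passed in 5 of the 6 comparisons, each time as a rise. In old glia flies its signal was 7.97, 8.17 and 8.05 with dSOD1 and 9.16, 9.29 and 9.29 with G85R, a rise of 1.19 ± 0.09 (2.28-fold, adjusted p = 2.3e-11). In old MN+glia flies it was 8.14, 8.18 and 8.34 with dSOD1 and 8.68, 8.67 and 8.84 with G85R, a rise of 0.51 ± 0.09 (adjusted p = 0.00016). Neither pair overlapped, and the glia rise was the larger. At 5d the rises were 0.34 ± 0.09 in MN (adjusted p = 0.011, a call lost without MN dSOD1 5d replicate 3 or MN G85R 5d replicate 3, and lost in the separate fit), 0.33 ± 0.09 in glia (adjusted p = 0.018, a call lost when 5 of its 6 arrays were left out in turn) and 0.45 ± 0.10 in MN+glia (adjusted p = 0.0033, a call lost without MN+glia G85R 5d replicate 3, 0.53 with all 36 arrays). The gene has a second probe set, dim in every group (group means 4.27 to 4.66), which passed in no G85R comparison but MN+glia at 45d (0.39, adjusted p = 0.0043) and in no age comparison, change with age or contrast between drivers, so the 2 probe sets disagree. With the mean of the 2 probe sets the glia call at 5d was lost.

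Cpr60D rose in 4 comparisons. In MN at 5d its signal was 6.21, 6.02 and 5.99 with dSOD1 and 6.78, 6.63 and 6.62 with G85R, a rise of 0.60 ± 0.10 (adjusted p = 0.00017). It rose by 0.50 ± 0.10 in MN at 45d (adjusted p = 0.00092), by 0.44 ± 0.10 in glia at 5d (adjusted p = 0.0056, a call lost without glia G85R 5d replicate 1) and by 0.61 ± 0.11 in MN+glia at 5d (adjusted p = 0.00067, 0.76 with all 36 arrays). In old glia flies the difference was 0.19 ± 0.10 (adjusted p = 0.29) and in old MN+glia flies 0.20 ± 0.10 (adjusted p = 0.30). Cpr62Ba, a neighbour of Cpr62Bb at band 62B and dim throughout, rose by 0.48 ± 0.11 in MN at 45d (adjusted p = 0.0044) and by 0.37 ± 0.11 in MN+glia at 45d (adjusted p = 0.036, a call lost when 5 of its 6 arrays were left out in turn, with a difference of 0.23 without MN+glia G85R 45d replicate 3, and lost with all 36 arrays at 0.37 and adjusted p = 0.061, and lost in the separate fit). Cpr92A rose in glia by 0.36 ± 0.11 at 5d (adjusted p = 0.035, a call lost when 6 of its 6 arrays were left out in turn) and by 0.35 ± 0.11 at 45d (adjusted p = 0.030, a call lost when 4 of its 6 arrays were left out in turn), and Cpr67Fb rose by 0.42 ± 0.12 in MN at 5d (adjusted p = 0.023, a call lost when 4 of its 6 arrays were left out in turn, and lost with all 36 arrays at 0.42 and adjusted p = 0.10).

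Cpr97Eb fell in all 6 comparisons, as did 0.746% of all fly probe sets. In MN at 5d its signal was 7.09, 7.15 and 7.09 with dSOD1 and 6.25, 6.56 and 6.50 with G85R. In glia at 5d it was 6.82, 6.84 and 6.89 and 5.94, 6.11 and 6.02. In MN+glia at 5d it was 7.51, 7.57 and 7.49 and 7.14 and 6.96, with 6.85 on the array with degraded RNA. All G85R arrays were below all dSOD1 arrays of the same driver. The differences were -0.67 ± 0.09 (adjusted p = 8.0e-06), -0.83 ± 0.09 (adjusted p = 1.9e-07) and -0.47 ± 0.10 (adjusted p = 0.0037, a call lost without MN+glia G85R 5d replicate 3, -0.54 with all 36 arrays). At 45d they were -0.55 ± 0.09, -0.51 ± 0.09 and -0.47 ± 0.09 (highest adjusted p = 0.00081), again with no overlap and no call lost without any 1 array.

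Cpr49Ab fell with G85R in all 3 drivers at 45d and in none at 5d. Its signal in old MN flies was 10.58, 10.56 and 10.65 with dSOD1 and 10.03, 10.03 and 10.06 with G85R. In old glia flies it was 10.61, 10.65 and 10.79 and 10.30, 10.10 and 10.13, and in old MN+glia flies 10.64, 10.60 and 10.63 and 10.02, 10.04 and 10.02. The old G85R arrays lay below the old dSOD1 arrays in each driver, with differences of -0.56 ± 0.07, -0.50 ± 0.07 and -0.60 ± 0.07 (highest adjusted p = 1.4e-06), and none of the calls was lost without any 1 array. At 5d the differences were -0.13 ± 0.07 in MN (adjusted p = 0.21), 0.00 ± 0.07 in glia (adjusted p = 0.99) and -0.11 ± 0.07 in MN+glia (adjusted p = 0.47, or 0.00 and 0.98 with all 36 arrays).

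The other falls were smaller or less stable. Cpr47Ee, at band 47E as Cpr47Ef is, fell in glia at 5d (-0.49 ± 0.09, adjusted p = 0.00057), where its signal was 7.30, 7.50 and 7.48 with dSOD1 and 6.86, 6.92 and 7.01 with G85R. It fell in MN at 5d (-0.37 ± 0.09, adjusted p = 0.010, a call lost without MN dSOD1 5d replicate 1) and in MN+glia at 45d (-0.35 ± 0.09, adjusted p = 0.015, a call lost when 3 of its 6 arrays were left out in turn, and lost in the separate fit), where the groups overlapped. Cpr50Ca, a dim gene, fell in MN at 45d (-0.53 ± 0.08, adjusted p = 2.5e-05). Its other falls, -0.27 ± 0.08 in MN at 5d (adjusted p = 0.036, a call lost when 4 of its 6 arrays were left out in turn, and lost in the separate fit and after cyclic loess), -0.26 ± 0.08 in glia at 45d (adjusted p = 0.035, a call lost when 4 of its 6 arrays were left out in turn, and lost after cyclic loess) and -0.26 ± 0.08 in MN+glia at 45d (adjusted p = 0.042, a call lost when 4 of its 6 arrays were left out in turn, with a difference of -0.16 without MN+glia dSOD1 45d replicate 3, and lost in the separate fit and after cyclic loess), were less stable. Cpr67B fell in glia at 5d (-0.31 ± 0.07, adjusted p = 0.0043), in MN at 5d (-0.27 ± 0.07, adjusted p = 0.013, a call lost without MN dSOD1 5d replicate 3 or MN G85R 5d replicate 1, and lost in the separate fit) and in MN at 45d (-0.24 ± 0.07, adjusted p = 0.025, a call lost when 4 of its 6 arrays were left out in turn, and lost in the separate fit and after cyclic loess). Cpr49Ag fell in MN at 45d (-0.32 ± 0.08, adjusted p = 0.0059, a call lost without MN G85R 45d replicate 2, and lost in the separate fit), in glia at 45d (-0.30 ± 0.08, adjusted p = 0.011, a call lost without glia dSOD1 45d replicate 1 or glia G85R 45d replicate 1) and in MN+glia at 5d (-0.33 ± 0.09, adjusted p = 0.021, a call lost without MN+glia dSOD1 5d replicate 2 or MN+glia G85R 5d replicate 3, -0.32 with all 36 arrays, and lost in the separate fit).

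A further 7 Cpr genes fell in 1 comparison each, and each of these calls was lost without at least 1 array. Cpr64Ac fell in MN at 5d (-0.35 ± 0.11, adjusted p = 0.035, a call lost when 5 of its 6 arrays were left out in turn). Cpr56F fell in glia at 5d (-0.35 ± 0.09, adjusted p = 0.019, a call lost when 4 of its 6 arrays were left out in turn). Cpr76Bc fell in MN at 45d (-0.46 ± 0.13, adjusted p = 0.017, a call lost without MN dSOD1 45d replicate 2 or MN G85R 45d replicate 2, with a difference of -0.30 without MN G85R 45d replicate 2, and lost in the separate fit). In MN+glia at 5d, the comparison with 2 G85R arrays, Cpr92F fell (-0.42 ± 0.09, adjusted p = 0.0023, a call lost without MN+glia G85R 5d replicate 1, -0.37 with all 36 arrays, and lost in the separate fit), Cpr49Ae (-0.28 ± 0.08, adjusted p = 0.035, a call lost when 3 of its 5 arrays were left out in turn, and lost with all 36 arrays at -0.17 and adjusted p = 0.16, and lost in the separate fit) and Cpr62Bc (-0.28 ± 0.08, adjusted p = 0.043, a call lost when 4 of its 5 arrays were left out in turn, and lost with all 36 arrays at -0.17 and adjusted p = 0.18, and lost in the separate fit). Cpr100A fell in MN+glia at 45d (-0.42 ± 0.12, adjusted p = 0.017, a call lost without MN+glia dSOD1 45d replicate 2 or MN+glia G85R 45d replicate 3, and lost with all 36 arrays at -0.42 and adjusted p = 0.055).

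Cpr11B passed in opposite directions. In MN at 5d its signal was 5.93, 6.01 and 6.18 with dSOD1 and 5.17, 5.20 and 5.45 with G85R, and all G85R arrays were lower (-0.77 ± 0.13, adjusted p = 0.00012). In MN+glia at 45d it was 5.44, 5.86 and 5.64 with dSOD1 and 6.26, 6.45 and 5.97 with G85R, and all G85R arrays were higher, by 0.58 ± 0.13 (adjusted p = 0.0027). In glia at 45d it rose by 0.47 ± 0.13 (adjusted p = 0.013, a call lost without glia dSOD1 45d replicate 1 or glia G85R 45d replicate 3).

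Outside the Cpr family, TwdlE gave the largest G85R difference. Its signal in MN at 5d was 5.13, 5.12 and 5.13 with dSOD1 and 5.85, 6.08 and 5.83 with G85R, a rise of 0.80 ± 0.12 without overlap (adjusted p = 1.7e-05). In glia at 5d its difference was 0.29 ± 0.12 (adjusted p = 0.15), and in MN+glia at 5d it was 0.07 ± 0.13 (adjusted p = 0.84, or 0.26 and 0.21 with all 36 arrays). TwdlS, dim in all groups, rose in glia at 5d by 0.26 ± 0.05 (adjusted p = 0.0019) and fell in glia at 45d (-0.16 ± 0.05, adjusted p = 0.043, a call lost when 5 of its 6 arrays were left out in turn, and lost with all 36 arrays at -0.16 and adjusted p = 0.073, and lost in the separate fit). Lcp65Ac, a larval cuticle gene of the band 65A cluster, fell in glia at 45d (-0.33 ± 0.09, adjusted p = 0.017, a call lost when 4 of its 6 arrays were left out in turn). Edg91 and TwdlL were named after their values were seen. Edg91 rose in glia at 45d by 0.35 ± 0.08 (adjusted p = 0.0030), and TwdlL rose in glia at 5d by 0.22 ± 0.07 (adjusted p = 0.042, a call lost when 6 of its 6 arrays were left out in turn, and lost after cyclic loess). The other 21 Tweedle genes, the other 6 Lcp genes, the 3 Ccp84 genes and the other 2 Edg genes passed in no G85R comparison.

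**Figure D3:**
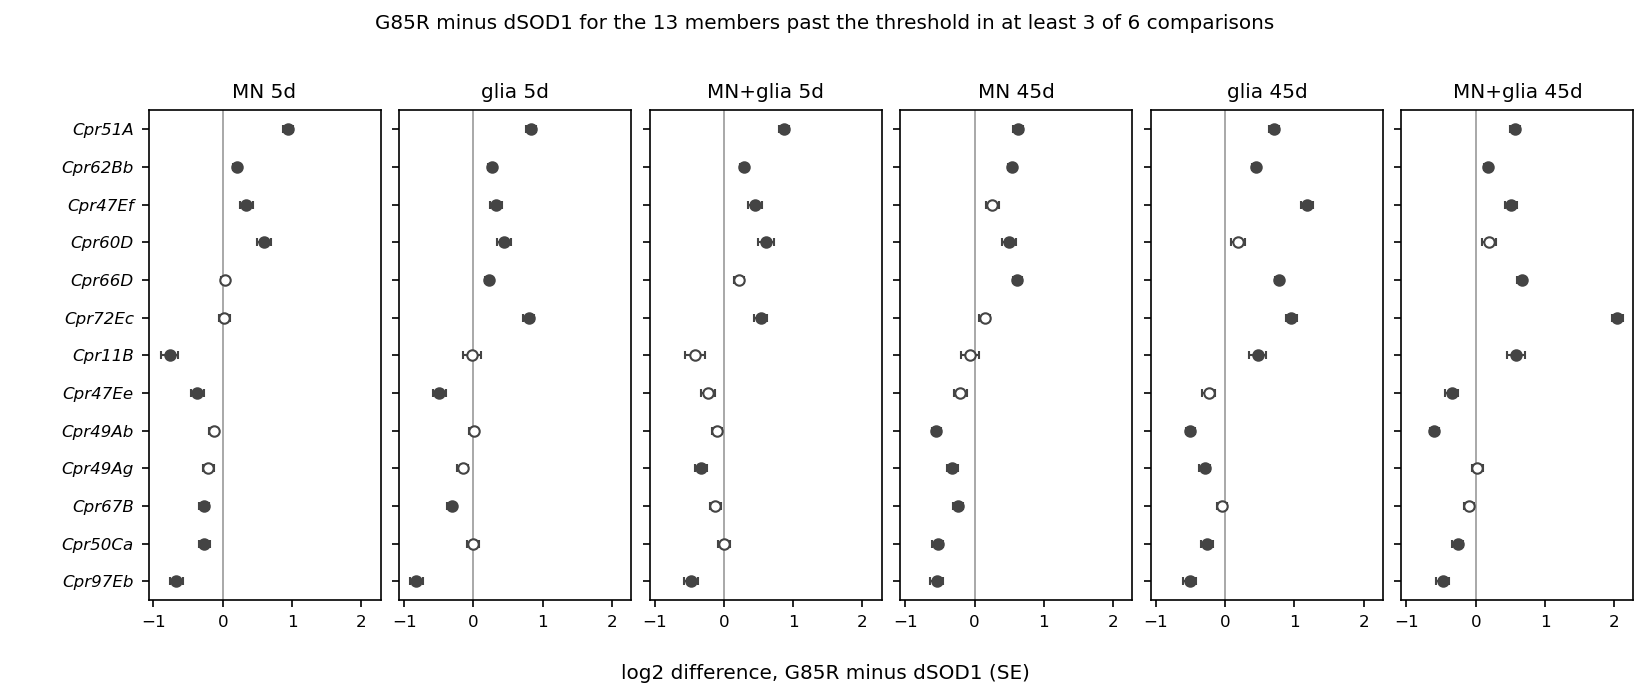
Log2 difference of G85R minus dSOD1 flies (x axis), with 1 panel for each of the 6 driver and age combinations, for the 13 genes past the threshold in at least 3 of them (y axis). Filled points passed an adjusted p of 0.05, open points did not, and bars are standard errors from the fit on 35 arrays. Cpr51A and Cpr62Bb lie to the right of 0 and Cpr97Eb to the left in every combination, and Cpr72Ec in MN+glia at 45d lies farthest right at 2.04.

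The second question was how cuticle genes changed between 5d and 45d within each driver and transgene. In MN dSOD1 flies 7 genes rose and 28 fell, where 27.4% of all fly probe sets rose and 20.0% fell. In MN G85R flies 10 rose and 20 fell (23.2% and 18.3% of all), in glia dSOD1 flies 8 and 19 (23.6% and 18.8%), and in glia G85R flies 9 and 23 (21.0% and 15.9%). In MN+glia dSOD1 flies 9 rose and 18 fell (22.1% and 18.3%), and in MN+glia G85R flies 10 and 16 (16.5% and 14.5%). Falls outnumbered rises among the cuticle genes in each of the 6 comparisons, while rises outnumbered falls among all probe sets. The share of cuticle genes that rose was below that of all probe sets in every comparison. The share that fell was near that of all probe sets in MN G85R, glia dSOD1 and the MN+glia flies. It was above it in MN dSOD1 and glia G85R flies. The median difference over the 103 genes was -0.09 to -0.02, against -0.01 to 0.03 over all probe sets. Cyclic loess normalization changed the split in glia G85R flies to 11 rises and 17 falls, that is from 28.1% to 39.3% rises. Without MN+glia G85R 5d replicate 1 the 26 passing genes of MN+glia G85R flies became 15. Of the 177 passing differences, 123 stayed past the threshold under every alternative.

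Cpr67Fb rose in all 6 comparisons, by more than any other cuticle gene. In glia flies its signal with dSOD1 was 8.54, 8.25 and 8.33 at 5d and 12.20, 12.15 and 12.20 at 45d. With G85R it was 8.19, 8.21 and 8.49 at 5d and 12.35, 12.24 and 12.20 at 45d. The rises were 3.81 ± 0.12 (14.0-fold, adjusted p = 1.1e-20) and 3.97 ± 0.12 (15.6-fold, adjusted p = 9.9e-21). In MN flies young values were higher, at 10.15, 9.97 and 10.26 with dSOD1 and 10.55, 10.59 and 10.50 with G85R. Old MN flies reached 12.42, 12.14 and 12.18 and 12.13, 12.23 and 12.42, so the rises were 2.12 ± 0.12 (4.35-fold) and 1.71 ± 0.12 (3.28-fold). In MN+glia flies the signal was 8.76, 9.02 and 8.99 at 5d and 12.04, 11.97 and 12.13 at 45d with dSOD1, and 8.74 and 9.42 and 12.26, 12.54 and 12.34 with G85R. These rises were 3.12 ± 0.12 and 3.30 ± 0.13 (3.01 with all 36 arrays), and no old array of any group overlapped a young one. The 6 old group means lay between 12.05 and 12.38, while the young ones ranged from 8.30 to 10.55. Rises in all 6 age comparisons were seen for 9.70% of all fly probe sets.

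The lens gene Cpr66D also rose in all 6. In MN flies its signal at 5d was 8.03, 7.85 and 7.85 with dSOD1 and 7.98, 7.90 and 7.95 with G85R, close to one another, and the 45d values given above were higher on every array. The rise was 0.40 ± 0.06 with dSOD1 and 0.99 ± 0.06 with G85R in MN, 0.49 ± 0.06 and 1.04 ± 0.06 in glia, and 0.80 ± 0.06 and 1.25 ± 0.07 in MN+glia (highest adjusted p = 3.5e-06). Cpr72Ec, the other lens gene, rose in 5 of the 6, by 1.03 ± 0.08 in MN dSOD1, 1.15 ± 0.08 in MN G85R, 1.08 ± 0.08 in glia dSOD1, 1.24 ± 0.08 in glia G85R and 1.47 ± 0.09 in MN+glia G85R flies (highest adjusted p = 1.4e-11). In MN+glia dSOD1 flies the difference was -0.04 ± 0.08 (adjusted p = 0.77), and the young and old values overlapped. Its MN signal was 9.77, 9.81 and 9.71 at 5d and 10.72, 10.90 and 10.76 at 45d with dSOD1, with no overlap.

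The Tweedle genes TwdlT and TwdlG rose in all 6 as well. TwdlT in glia dSOD1 flies was 7.35, 7.39 and 7.31 at 5d and 7.99, 8.15 and 7.93 at 45d. All old values exceeded the young ones, and over the 6 comparisons its rise ran from 0.31 in MN G85R (adjusted p = 0.012, a call lost without MN G85R 45d replicate 2) to 0.87 in MN+glia dSOD1 flies (adjusted p = 2.2e-08). In MN+glia G85R flies TwdlT rose by 0.47 ± 0.11 (adjusted p = 0.0013, a call lost without MN+glia G85R 5d replicate 1, with a difference of 0.21 without MN+glia G85R 5d replicate 1 and 0.74 without MN+glia G85R 5d replicate 3, 0.33 with all 36 arrays). TwdlG rose by 0.36 in glia G85R (adjusted p = 0.0076, a call lost without glia G85R 5d replicate 3 or glia G85R 45d replicate 3) to 0.61 in MN G85R flies (adjusted p = 2.3e-05). In MN+glia G85R flies TwdlG rose by 0.45 ± 0.12 (adjusted p = 0.0037, a call lost with all 36 arrays at 0.30 and adjusted p = 0.059). Cpr67B passed as a rise in 5 of the 6, and not in glia dSOD1 flies (0.16 ± 0.07, adjusted p = 0.074). Its rises ran from 0.22 ± 0.07 in MN dSOD1 flies (adjusted p = 0.012, a call lost when 4 of its 6 arrays were left out in turn, and lost in the separate fit and after cyclic loess) to 0.43 ± 0.07 in glia G85R flies (adjusted p = 1.4e-05). Cpr62Ba rose in 4, by 0.29 ± 0.11 to 0.36 ± 0.13, each of them lost when 3 or more arrays were left out in turn and all but the MN+glia dSOD1 call lost with all 36 arrays. Cpr60D rose in glia dSOD1 flies by 0.34 ± 0.10 (adjusted p = 0.0080), and Lcp65Ac in the same flies by 0.35 ± 0.09 (adjusted p = 0.0033).

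The largest fall was that of Cpr49Ae in MN+glia dSOD1 flies, and Cpr49Ae fell in all 6 groups. In MN+glia dSOD1 flies its signal was 11.41, 11.28 and 11.24 at 5d and 9.59, 9.46 and 9.49 at 45d. In MN+glia G85R flies it was 11.12 and 10.94 at 5d and 9.38, 9.42 and 9.32 at 45d. In both the old arrays were all lower, with differences of -1.79 ± 0.07 (adjusted p = 4.9e-18) and -1.66 ± 0.08 (adjusted p = 1.3e-15, -1.76 with all 36 arrays). In MN the falls were -1.32 ± 0.07 with dSOD1 and -1.10 ± 0.07 with G85R, and in glia -1.30 ± 0.07 and -1.16 ± 0.07 (highest adjusted p over the 6 = 6.0e-13). None of the 6 was lost without any 1 array, and 10.1% of all fly probe sets fell in all 6 comparisons.

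Cpr66Cb fell in all 6 groups by similar amounts. In MN dSOD1 flies its signal was 7.12, 6.88 and 7.04 at 5d and 5.99, 5.76 and 5.72 at 45d, and in glia dSOD1 flies it was 7.08, 7.24 and 7.24 and 6.01, 6.0 and 5.87. The old values lay about 1 log2 unit lower, and the 6 differences ran from -1.19 to -1.29 (highest adjusted p = 6.3e-09, -1.13 in MN+glia G85R with all 36 arrays). Cpr100A was 6.64 and 6.97 in young and 5.52, 5.56 and 5.54 in old MN+glia G85R flies. This was its largest fall, -1.27 ± 0.13 (adjusted p = 8.9e-09, -1.46 with all 36 arrays), and the smallest was -0.59 ± 0.12 in glia dSOD1 flies (adjusted p = 8.6e-05). Cpr47Ee in MN dSOD1 flies was 6.95, 6.90 and 6.81 at 5d and 5.98, 5.85 and 6.10 at 45d, and over the 6 groups it fell with differences of -0.42 in glia G85R to -0.91 in MN dSOD1 flies (highest adjusted p = 0.00066). Cpr62Bb, which was higher with G85R, fell with age in all 6 groups, with differences of -0.39 to -0.72 (highest adjusted p = 5.4e-07). Cpr65Au, with group means from 12.16 to 12.66, fell with differences of -0.31 to -0.36 (highest adjusted p = 4.8e-05). These 5 genes kept each age call without any 1 array.

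Cpr56F and Twdlalpha also fell in all 6. Cpr56F fell with differences of -0.24 to -0.51, with the smallest fall in glia G85R flies (adjusted p = 0.044, a call lost when 5 of its 6 arrays were left out in turn, and lost with all 36 arrays at -0.24 and adjusted p = 0.053, and lost after cyclic loess). In MN+glia G85R flies it fell (-0.29 ± 0.11, adjusted p = 0.035, a call lost when 4 of its 5 arrays were left out in turn, and lost with all 36 arrays at -0.22 and adjusted p = 0.085). Twdlalpha fell with differences of -0.21 to -0.52, among them -0.21 ± 0.08 in glia G85R flies (adjusted p = 0.032, a call lost when 4 of its 6 arrays were left out in turn) and -0.28 ± 0.09 in MN+glia G85R flies (adjusted p = 0.011, a call lost without MN+glia G85R 5d replicate 1 or MN+glia G85R 45d replicate 1, -0.32 with all 36 arrays, and lost in the separate fit). Cpr47Ef fell in 5 of the 6, by most in glia dSOD1 flies (-1.01 ± 0.09, adjusted p = 9.7e-11), while in glia G85R flies the difference was -0.15 ± 0.09 (adjusted p = 0.20). Its MN+glia G85R call was lost with the mean of its 2 probe sets (-0.12, adjusted p = 0.33). Cpr97Eb fell in 5 of the 6, with differences from -0.30 ± 0.09 in glia G85R (adjusted p = 0.012, a call lost without glia G85R 5d replicate 2 or glia G85R 45d replicate 2) to -0.65 ± 0.09 in MN+glia dSOD1 flies (adjusted p = 9.3e-07). Cpr49Ab fell with age in G85R flies of each driver, with differences of -0.38 ± 0.07, -0.66 ± 0.07 and -0.51 ± 0.07, and its differences in dSOD1 flies were 0.04 ± 0.07, -0.16 ± 0.07 and -0.02 ± 0.07 (lowest adjusted p = 0.056). Cpr51A fell in MN G85R flies alone (-0.25 ± 0.07, adjusted p = 0.0043). Cpr49Ag fell in 3, most in MN+glia dSOD1 flies (-0.69 ± 0.08, adjusted p = 1.7e-08).

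TwdlE, whose mean reached the dim limit in young MN G85R flies alone (5.92), fell in the MN and glia groups. In MN G85R flies its signal was 5.85, 6.08 and 5.83 at 5d and 4.88, 5.10 and 4.82 at 45d, a fall of -0.99 ± 0.12 without overlap (adjusted p = 4.5e-08). It also fell in MN dSOD1 (-0.47 ± 0.12, adjusted p = 0.0014), glia dSOD1 (-0.40 ± 0.12, adjusted p = 0.0062, a call lost without glia dSOD1 5d replicate 3) and glia G85R flies (-0.49 ± 0.12, adjusted p = 0.0013). In MN+glia flies its differences were -0.10 ± 0.12 with dSOD1 and 0.10 ± 0.13 with G85R (adjusted p = 0.54 and 0.62). TwdlS fell in glia G85R flies (-0.35 ± 0.05, adjusted p = 6.0e-06). Cpr11B rose in MN G85R flies by 0.80 ± 0.13 (adjusted p = 6.3e-06) and in MN+glia G85R flies by 0.42 ± 0.14 (adjusted p = 0.024, a call lost when 3 of its 5 arrays were left out in turn, with a difference of 0.24 without MN+glia G85R 5d replicate 1, and lost with all 36 arrays at 0.30 and adjusted p = 0.094, and lost in the separate fit), and fell in MN+glia dSOD1 flies (-0.57 ± 0.13, adjusted p = 0.00051), the 1 cuticle gene that passed both ways with age. Cpr47Ea fell in every group but MN+glia G85R, most in glia dSOD1 flies (-0.72 ± 0.10, adjusted p = 7.8e-07), and Cpr92F likewise, most in MN+glia dSOD1 flies (-0.53 ± 0.08, adjusted p = 1.7e-06) and least in glia G85R flies (-0.25 ± 0.08, adjusted p = 0.012, a call lost without glia G85R 5d replicate 2 or glia G85R 45d replicate 1, and lost after cyclic loess). Cpr62Bc fell in the MN and MN+glia groups, with differences of -0.35 to -0.50, and its glia differences were -0.02 and -0.01 (adjusted p = 0.90 and 0.94). In MN dSOD1 flies Cpr64Ac fell (-0.36 ± 0.11, adjusted p = 0.0067) and Cpr92A (-0.26 ± 0.11, adjusted p = 0.041, a call lost when 4 of its 6 arrays were left out in turn, with a difference of -0.44 without MN dSOD1 45d replicate 1 and -0.18 without MN dSOD1 45d replicate 3, and lost in the separate fit), in MN G85R flies Cpr76Bc (-0.39 ± 0.13, adjusted p = 0.018, a call lost without MN G85R 5d replicate 3 or MN G85R 45d replicate 2, with a difference of -0.23 without MN G85R 45d replicate 2), and in MN+glia G85R flies Cpr50Ca (-0.30 ± 0.09, adjusted p = 0.011, a call lost without MN+glia G85R 5d replicate 1 or MN+glia G85R 5d replicate 3, -0.32 with all 36 arrays). TwdlP and Ccp84Ag were named after their values were seen. TwdlP fell in 5 of the 6, most in MN dSOD1 flies (-0.60 ± 0.10, adjusted p = 5.1e-06). Ccp84Ag fell in 5, most in glia dSOD1 flies (-0.53 ± 0.09, adjusted p = 7.4e-06) and with a difference of -0.29 ± 0.09 in MN+glia dSOD1 flies (adjusted p = 0.0061, a call lost without MN+glia dSOD1 5d replicate 1 or MN+glia dSOD1 45d replicate 1, with a difference of -0.19 without MN+glia dSOD1 5d replicate 1, and lost in the separate fit) and -0.27 ± 0.09 in glia G85R flies (adjusted p = 0.015, a call lost without glia G85R 5d replicate 1 or glia G85R 45d replicate 2, and lost after cyclic loess). Calls among these age results that were also lost without at least 1 array were those of Cpr56F in MN dSOD1, Cpr67B in MN G85R, TwdlP in glia G85R and Cpr49Ag in MN+glia G85R flies. The passing age differences of the 20 genes not described singly lay between -0.41 and 0.43.

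**Figure D4:**
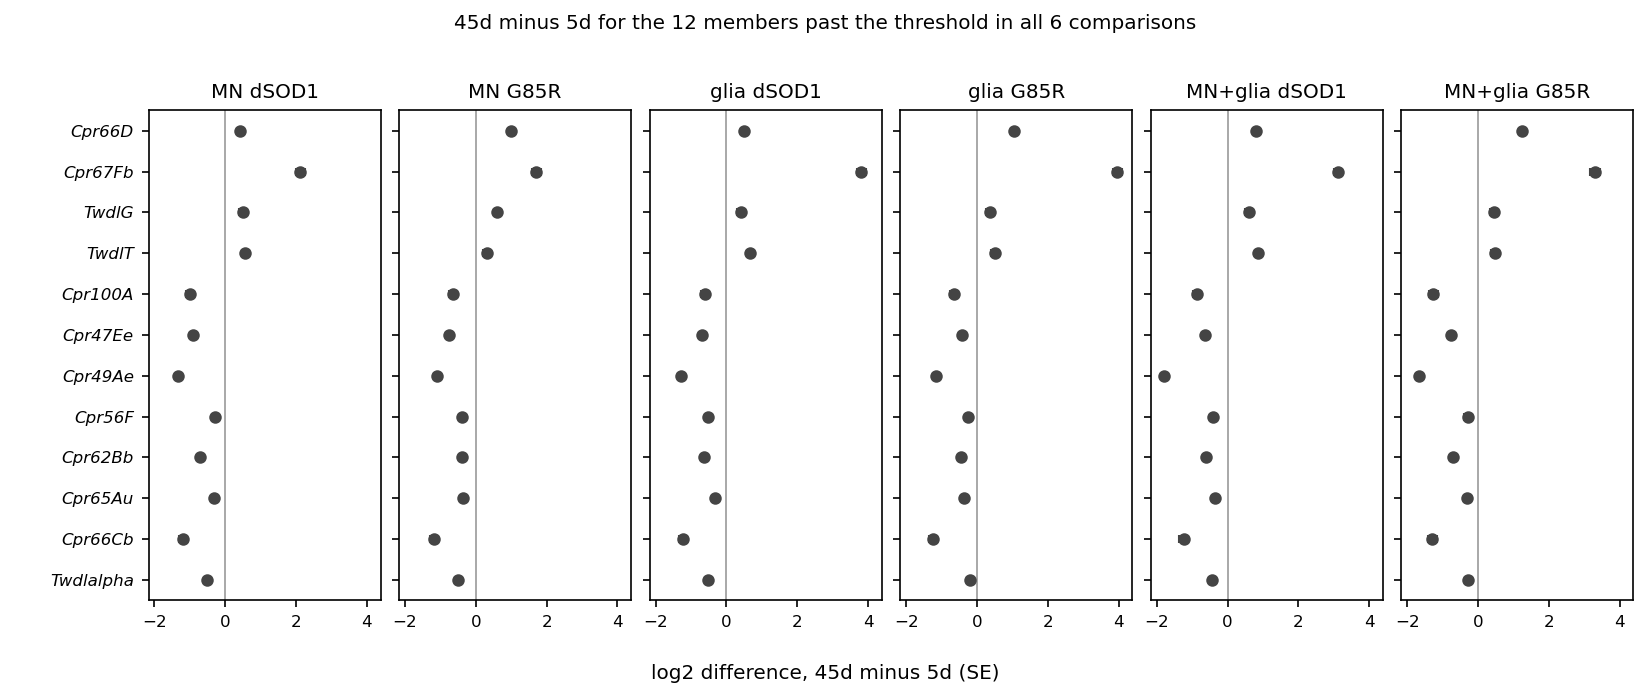
Log2 difference of 45d minus 5d flies (x axis), with 1 panel for each of the 6 driver and transgene groups, for the 12 cuticle genes that passed in the same direction in all of them (y axis). Points are differences from the fit on 35 arrays with bars for standard errors. Cpr67Fb lies farthest right with rises from 1.71 to 3.97, and Cpr49Ae in MN+glia dSOD1 flies lies farthest left at -1.79.

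Genes of a cytological band were also read together, beside the 16.5% to 27.4% that rose and 14.5% to 20.0% that fell of all fly probe sets in an age comparison. Of the 7 genes at band 47E, 0 rose and 2 to 3 fell (28.6% to 42.9%) in an age comparison. Of the 8 at band 49A, 0 to 2 rose (0% to 25%) and 1 to 3 fell (12.5% to 37.5%), and Cpr49Ad passed in none of the 12 comparisons while Cpr49Ae fell in all 6. Of the 10 at band 65A, which holds Cpr and Lcp genes, 0 to 1 rose and 1 to 3 fell (10% to 30%). All 3 Ccp84 genes at band 84A fell in MN dSOD1 flies (differences of -0.26 to -0.43, with the Ccp84Ac and Ccp84Ae calls lost in the separate fit and when 4 of their 6 arrays were left out in turn), and in the other age comparisons 1 of them fell, Ccp84Ac in MN+glia G85R flies (-0.35 ± 0.12, adjusted p = 0.020, a call lost without MN+glia G85R 5d replicate 1 or MN+glia G85R 45d replicate 1, -0.39 with all 36 arrays) and Ccp84Ag in the other 4. Edg84A, a gene of the same band, was not counted with them and passed in none of the 12 comparisons. At band 67F, Cpr67Fb rose in all 6 while Cpr67Fa1 and Cpr67Fa2 passed in none, with group means of 4.48 to 4.81 and 3.82 to 4.10. At band 72E, Cpr72Ec moved as described and Cpr72Ea and Cpr72Eb passed in none.

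The third question was whether the G85R difference itself changed between 5d and 45d, tested as the G85R difference at 45d minus that at 5d. In MN 4 genes passed (2.14% of all fly probe sets), in glia 4 (2.99%) and in MN+glia 4 (1.46%). The MN count was 2 with all 36 arrays, without MN dSOD1 5d replicate 3 or without MN G85R 5d replicate 1. Cpr66D passed in all 3, with changes of 0.58 ± 0.09 in MN (adjusted p = 0.00020), 0.55 ± 0.09 in glia (adjusted p = 0.00030) and 0.45 ± 0.09 in MN+glia (adjusted p = 0.0089, 0.41 with all 36 arrays, a call lost in the separate fit), so its G85R difference was larger in old flies of each driver. Cpr49Ab also passed in all 3, in the other direction, with -0.42 ± 0.09 (adjusted p = 0.0099), -0.51 ± 0.09 (adjusted p = 0.0013) and -0.49 ± 0.10 (adjusted p = 0.0057, -0.60 with all 36 arrays). Cpr72Ec changed by 1.51 ± 0.12 in MN+glia (adjusted p = 1.1e-09, 1.49 with all 36 arrays), the largest change of any cuticle gene. Cpr47Ef changed by 0.86 ± 0.12 in glia (adjusted p = 5.8e-05), and TwdlS in glia (-0.42 ± 0.08, adjusted p = 0.0012). Cpr11B changed by 0.99 ± 0.19 in MN+glia (adjusted p = 0.0040, 0.87 with all 36 arrays, a call lost in the separate fit) and by 0.71 ± 0.18 in MN (adjusted p = 0.034, a call lost when 7 of its 12 arrays were left out in turn, and lost with all 36 arrays at 0.71 and adjusted p = 0.055). Cpr62Bb changed by 0.33 ± 0.08 in MN (adjusted p = 0.016, a call lost when 4 of its 12 arrays were left out in turn, and lost with all 36 arrays at 0.33 and adjusted p = 0.068, and lost in the separate fit). These tests use the same arrays as the G85R and age comparisons and are not further evidence for them.

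The G85R difference was also compared between drivers, in contrasts added after the data had been seen. At 5d it passed for 2 genes between glia and MN (0.884% of all fly probe sets), for 2 between MN+glia and MN (1.02%) and for 0 between MN+glia and glia (0.144%). At 45d it passed for 2 (1.84%), 3 (1.85%) and 2 (0.666%). The Cpr72Ec difference was larger in glia than in MN by 0.78 ± 0.12 at 5d (adjusted p = 0.00024) and by 0.81 ± 0.12 at 45d (adjusted p = 4.5e-05). Compared with MN, the MN+glia difference was larger by 1.90 ± 0.12 at 45d (adjusted p = 1.1e-12) and by 0.51 ± 0.12 at 5d (adjusted p = 0.041, a call lost when 7 of its 11 arrays were left out in turn, and lost in the separate fit). At 45d it was larger in MN+glia than in glia by 1.09 ± 0.12 (adjusted p = 7.5e-07). The Cpr47Ef difference at 45d was larger in glia than in MN by 0.93 ± 0.12 (adjusted p = 1.8e-05), and its MN+glia minus glia value was -0.68 ± 0.12 (adjusted p = 0.0030), a call lost with the mean of its 2 probe sets. For Cpr11B the glia minus MN value at 5d was 0.75 ± 0.18 (adjusted p = 0.038, a call lost when 6 of its 12 arrays were left out in turn, and lost with all 36 arrays at 0.75 and adjusted p = 0.061, and lost in the separate fit and after cyclic loess), and for TwdlE the MN+glia minus MN value at 5d was -0.73 ± 0.18 (adjusted p = 0.039, a call lost when 8 of its 11 arrays were left out in turn, and lost with all 36 arrays at -0.54 and adjusted p = 0.095). The MN+glia minus MN value at 45d was -0.36 ± 0.08 for Cpr62Bb (adjusted p = 0.0062, a call lost in the separate fit) and -0.72 ± 0.16 for Cpr100A (adjusted p = 0.012, a call lost without MN+glia dSOD1 45d replicate 2, and lost with all 36 arrays at -0.72 and adjusted p = 0.050).

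Levels were last compared among the 3 drivers within a transgene and age by moderated F tests. Among dSOD1 flies 30 cuticle genes differed at 5d (37.4% of all fly probe sets) and 25 at 45d (34.2%), and among G85R flies 28 at 5d (29.7%) and 20 at 45d (30.5%). In at least 1 of the 4 tests 54 genes differed, against 58.1% of all probe sets, and 8 differed in all 4, against 13.6%, namely Cpr100A, Cpr47Ee, Cpr49Ae, Cpr49Ag, Cpr72Ec, Cpr97Eb, TwdlE and TwdlT. With all 36 arrays Cpr100A no longer passed at 5d with either transgene (adjusted p = 0.077 and 0.20), nor did Cpr49Ae in young dSOD1 flies (adjusted p = 0.066). In the separate fit Cpr100A was lost in young G85R and Cpr49Ae in young dSOD1 flies. The Cpr100A call was also lost when 4 of 9 arrays of young dSOD1 flies were left out in turn. It was likewise lost for 4 of 8 arrays of young G85R flies, and the Cpr49Ae call for 4 of 9 arrays of young dSOD1 flies. Of the 103 passing tests, 57 stayed past the threshold under every alternative. The widest spread was that of Cpr72Ec in old dSOD1 flies, with means of 10.79 in MN, 9.32 in glia and 8.17 with both drivers (adjusted p = 4.1e-20). Its values in those flies were 10.72, 10.90 and 10.76 in MN, 9.20, 9.39 and 9.37 in glia and 8.08, 8.12 and 8.31 with both drivers, and no driver overlapped another. Cpr67Fb in young G85R flies had means of 10.55 in MN, 8.30 in glia and 9.08 with both drivers (adjusted p = 2.5e-14, 1.3e-11 with all 36 arrays), and in young dSOD1 flies 10.12 in MN, 8.38 in glia and 8.92 with both drivers (adjusted p = 6.7e-12). TwdlT was highest in glia in all 4 tests, with means of 6.62 in MN, 7.35 in glia and 6.49 with both drivers in young dSOD1 flies (adjusted p = 1.3e-07) and 7.19 in MN, 8.03 in glia and 7.36 with both drivers in old ones (adjusted p = 2.3e-07).

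TwdlE was highest in MN, with means of 5.92 in MN, 4.94 in glia and 4.37 with both drivers in young G85R flies (adjusted p = 3.7e-10, 9.7e-09 with all 36 arrays) and 5.12 in MN, 4.65 in glia and 4.30 with both drivers in young dSOD1 flies (adjusted p = 1.3e-05). Cpr97Eb was lowest in glia and highest in MN+glia in all 4, with means of 6.44 in MN, 6.02 in glia and 7.05 with both drivers in young G85R flies (adjusted p = 3.6e-08, 1.9e-08 with all 36 arrays). Cpr62Bc was lowest in glia in young dSOD1 flies, with means of 5.26 in MN, 4.73 in glia and 5.45 with both drivers (adjusted p = 3.1e-08). At 45d Cpr72Ec in G85R flies had means of 10.94 in MN, 10.28 in glia and 10.21 with both drivers (adjusted p = 4.0e-08), a narrower spread than with dSOD1. Cpr100A had means of 5.95 in MN, 6.61 in glia and 5.96 with both drivers in old dSOD1 flies (adjusted p = 2.9e-05) and 6.25 in MN, 6.55 in glia and 5.54 with both drivers in old G85R flies (adjusted p = 1.8e-07), and Cpr49Ae means of 10.19 in MN, 9.81 in glia and 9.37 with both drivers in the same flies (adjusted p = 2.3e-09). Cpr47Ee was highest in glia in old flies, with means of 5.98 in MN, 6.75 in glia and 6.41 with both drivers with dSOD1 (adjusted p = 7.2e-07) and 5.77 in MN, 6.52 in glia and 6.06 with both drivers with G85R (adjusted p = 1.2e-06). Cpr11B had means of 6.14 in MN, 5.47 in glia and 5.65 with both drivers in old dSOD1 flies (adjusted p = 0.00042), and Cpr60D means of 6.67 in MN, 6.0 in glia and 6.20 with both drivers in young G85R flies (adjusted p = 2.4e-05, 0.00014 with all 36 arrays). None of the driver tests given here with means was lost when an array was left out.

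Genes of other cuticle families and of the pathways that build, tan and seal the cuticle were read from lists. Some of these genes also act outside the cuticle, and the tissue in which they changed was not tested. Beside them stand all fly probe sets, of which 16.5% to 27.4% rose and 14.5% to 20.0% fell with age and 2.93% to 6.94% rose and 3.58% to 5.96% fell with G85R in a comparison. Among 18 measured genes of other cuticle families, 0 to 2 rose (0% to 11.1%) and 0 fell with G85R in a comparison, and 0 to 1 rose (0% to 5.56%) and 5 to 9 fell (27.8% to 50%) with age, with medians of -0.26 to -0.10 for age. obst-A, a chitin-binding protein that organizes the cuticle matrix, fell with age in all 6 groups, with differences from -0.56 ± 0.12 in MN dSOD1 flies to -1.44 ± 0.13 in MN+glia G85R flies (highest adjusted p = 0.00016, -1.46 in the latter with all 36 arrays), and rose with G85R in MN at 5d by 0.57 ± 0.12 (adjusted p = 0.0012), in glia at 45d by 0.48 ± 0.12 (adjusted p = 0.0045, a call lost without glia dSOD1 45d replicate 2) and in MN+glia at 5d by 0.57 ± 0.13 (adjusted p = 0.0045, a call lost without MN+glia G85R 5d replicate 3, and lost in the separate fit, 0.35 without that array). Vajk3, a cuticle protein of the Vajk family, fell in all 6 as well, with differences of -0.82 to -1.22 (highest adjusted p = 2.7e-06). snsl rose with G85R in MN by 0.62 ± 0.09 at 5d (adjusted p = 3.0e-05) and 0.41 ± 0.09 at 45d (adjusted p = 0.0030), and in glia at 45d by 0.43 ± 0.09 (adjusted p = 0.0019).

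Of 31 measured genes of chitin synthesis, modification and degradation, 17 to 18 rose (54.8% to 58.1%) and 4 to 9 fell (12.9% to 29%) with age, with medians of 0.19 to 0.28, and 3 to 7 rose (9.68% to 22.6%) and 1 to 5 fell (3.23% to 16.1%) with G85R. This list was not restricted to genes of the cuticle and holds Chs2 and the Idgf genes, so its counts describe whole flies. Cda9, a chitin deacetylase, rose with G85R in all 6 comparisons, by 0.39 in MN at 5d to 1.75 in glia at 45d (highest adjusted p = 0.00084), and with age in all 6, by 0.32 to 1.35 (highest adjusted p = 0.00071). kkv, the chitin synthase of the epidermis and tracheae, fell with age in all 6, with differences of -0.47 to -0.73 (highest adjusted p = 8.6e-05). With G85R in MN+glia kkv fell at 5d (-0.52 ± 0.10, adjusted p = 0.0013, a call lost without MN+glia G85R 5d replicate 3, -0.46 with all 36 arrays) and at 45d (-0.34 ± 0.09, adjusted p = 0.014, a call lost without MN+glia dSOD1 45d replicate 2 or MN+glia G85R 45d replicate 2). Cht4, a chitinase, rose with age in 5 of the 6, most in MN G85R flies (1.57 ± 0.23, adjusted p = 1.6e-06). Its glia G85R rise was 0.65 ± 0.23 (adjusted p = 0.027, a call lost when 4 of its 6 arrays were left out in turn, and lost in the separate fit, 0.36 without glia G85R 5d replicate 1).

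Of 25 measured genes of sclerotization and pigmentation, 1 to 5 rose (4% to 20%) and 0 to 3 fell (0% to 12%) with G85R and 2 to 5 rose (8% to 20%) and 4 to 6 fell (16% to 24%) with age. PPO1 and PPO2, the genes of this list with the largest age differences, encode prophenoloxidases of the crystal cells of the hemolymph, which act in melanization. With age PPO1 fell in 5 groups, with differences of -1.19 to -2.04 (highest adjusted p = 5.8e-13), and in MN+glia G85R flies its difference was -0.07 ± 0.09 (adjusted p = 0.63). PPO2 fell in all 6, with differences from -0.39 in MN+glia G85R flies (adjusted p = 0.0026, a call lost without MN+glia G85R 5d replicate 3, -0.58 with all 36 arrays) to -2.25 in glia dSOD1 flies. With G85R at 5d PPO1 rose by 0.36 ± 0.08 in MN (adjusted p = 0.0028, a call lost in the separate fit) and 0.38 ± 0.08 in glia (adjusted p = 0.0019), and in MN+glia its difference was -0.33 ± 0.09 (adjusted p = 0.018, a call lost when 3 of its 5 arrays were left out in turn, and lost in the separate fit) or -0.16 with all 36 arrays (adjusted p = 0.30). At 45d it rose by 0.44 ± 0.08 in MN, 0.72 ± 0.08 in glia and 0.78 ± 0.08 with both drivers (highest adjusted p = 0.00019). The 3 hemocyte markers averaged 7.04 to 7.82 over the 5d groups and 6.94 to 7.82 over the 45d groups. ebony (e), the beta-alanyl-dopamine synthase of tanning, fell with age in all 6, with differences of -0.30 to -1.0 (highest adjusted p = 0.00024), and rose with G85R at 45d by 0.72 ± 0.06 in glia (adjusted p = 6.0e-10) and 0.76 ± 0.06 in MN+glia (adjusted p = 2.6e-10). tan (t), the hydrolase that reverses the ebony reaction, fell with G85R in MN at 45d (-0.33 ± 0.08, adjusted p = 0.0043, a call lost in the separate fit). With age tan fell most in MN G85R flies (-0.57 ± 0.08, adjusted p = 5.5e-07). It also fell in glia G85R (-0.22 ± 0.08, adjusted p = 0.028) and MN+glia dSOD1 flies (-0.22 ± 0.08, adjusted p = 0.026). Each of these smaller falls was lost without at least 1 array, and the MN+glia dSOD1 call also in the separate fit. Ddc, dopa decarboxylase, rose with G85R in MN+glia at 45d by 0.24 ± 0.07 (adjusted p = 0.018, a call lost when 3 of its 6 arrays were left out in turn, and lost in the separate fit). stw, laccase 2, rose with age in MN dSOD1 flies by 0.58 ± 0.15 (adjusted p = 0.0014), and ple (tyrosine hydroxylase) and y (yellow) passed in none of the 12.

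Of 17 measured genes of the apical matrix and cuticle barrier, 0 to 2 rose (0% to 11.8%) and 0 to 2 fell (0% to 11.8%) with G85R and 2 to 5 rose (11.8% to 29.4%) and 1 to 3 fell (5.88% to 17.6%) with age. FarO, a fatty acyl-CoA reductase, rose with age in glia dSOD1 flies by 0.80 ± 0.10 (adjusted p = 1.2e-07), and eloF, a fatty acid elongase of cuticular hydrocarbons, fell with age in glia G85R flies (-0.54 ± 0.11, adjusted p = 0.00015). neo, a zona pellucida domain protein, fell with G85R in MN at 5d (-0.42 ± 0.14, adjusted p = 0.044, a call lost when 4 of its 6 arrays were left out in turn, and lost in the separate fit and after cyclic loess). Of 21 measured genes of the ecdysone response and moulting control, 0 to 2 rose (0% to 9.52%) and 0 to 2 fell (0% to 9.52%) with G85R and 3 to 7 rose (14.3% to 33.3%) and 0 to 6 fell (0% to 28.6%) with age. ImpE3, an ecdysone-inducible gene, fell with G85R in glia and in MN+glia, with differences of -1.55 ± 0.13 and -1.62 ± 0.15 at 5d and -1.0 ± 0.13 and -1.36 ± 0.13 at 45d (highest adjusted p = 1.9e-06). ImpL2, a secreted insulin-binding protein, rose with G85R in glia at 45d by 0.83 ± 0.13 (adjusted p = 1.4e-05). The ecdysone receptor gene EcR rose with age in MN dSOD1 flies by 0.64 ± 0.16 (adjusted p = 0.0012), and ETH, which encodes ecdysis triggering hormone, fell with age in glia dSOD1 flies (-0.83 ± 0.09, adjusted p = 3.0e-09).

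Marker lists of other tissues moved with age and with G85R beside these genes, and their part in the changes was not tested. Mean levels over the groups were 10.30 to 10.81 at 5d and 9.60 to 10.01 at 45d for the 3 measured muscle markers of 5, 9.33 to 9.86 at 5d and 10.00 to 10.91 at 45d for the 2 measured gut markers of 4, and 10.56 to 10.74 at 5d and 9.97 to 10.29 at 45d for the 7 testis markers. The 6 accessory gland markers averaged 12.43 to 12.73 at 5d and 11.74 to 12.13 at 45d. The 4 fat body markers averaged 7.01 to 8.18 at 5d and 7.04 to 8.55 at 45d. The 4 measured neuron markers of 5 averaged 6.37 to 7.16 and 6.20 to 6.96, and the 4 glia markers 8.34 to 8.64 and 8.42 to 8.79. The 4 measured tracheal and epidermal markers of 6, the tissues that secrete cuticle, averaged 7.90 to 8.30 at 5d and 8.13 to 8.49 at 45d. With G85R the accessory gland markers fell in 5 of 6 in MN at 45d (list median -0.28), 3 of 6 in glia at 45d and 0 to 2 of 6 in the other comparisons. Of the 7 testis markers 4 rose and 1 fell in MN at 45d, and 0 to 1 rose and 0 to 1 fell elsewhere. Of the 2 gut markers 1 to 2 rose with G85R in each comparison (medians 0.23 to 0.72), of the 3 hemocyte markers 0 to 2 rose and 0 to 1 fell, of the 4 tracheal and epidermal markers 0 to 1 rose and 0 fell, and of the 3 eye markers 0 rose and 0 fell.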

How the data were processed

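Whole adult males (3 replicate arrays per group, each from an independent pool of 40 flies) were profiled on Affymetrix Drosophila Genome arrays. The deposited values are log2 signals that the authors made from the array images with RMA in Robin, a graphical interface to R, and their statistics used limma, per the labels and the study's methods. RMA corrects background, equalizes the distributions of the arrays and sums the probes of a probe set on the log2 scale, so scale differences between arrays are removed and the depth of a sequencing library has no counterpart here. The number of arrays limits the precision, and p-values measure the spread between these pools. The arrays hold 18952 probe sets, of which the 18769 fly ones were tested and the 183 control ones were not. The platform table used gave 13647 of them 1 gene symbol, 402 several and 4720 none, and symbols were updated through the RefSeq gene table. All 103 genes matched that table, which lists 123 symbols of these families, of which 20 were not analysed here because no single-gene probe set names them, and 6 probe sets naming a family gene beside others were not used. Each of 2 genes had 2 probe sets, and the brighter one was taken. Near-identical neighbours of a cluster may share signal on the array.

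Means of the 12 groups were fitted with limma 3.58.1 in R 4.3.3 on 35 arrays (23 residual and 5.84 prior degrees of freedom) and compared as G85R minus dSOD1, 45d minus 5d, the difference of these differences, and F tests among drivers. The study's methods leave out 1 array with degraded RNA, and the control probe sets placed it in MN+glia G85R 5d. The deposited 3-prime and 5-prime values of 3 of the 4 controls of this array stood apart from those of the other 35, although the methods name a glia group. Adjusted p-values are Benjamini-Hochberg over all fly probe sets within a comparison, with a threshold of 0.05. The genes described are, for each comparison with a direction, up to 5 with the largest rise and up to 5 with the largest fall past the threshold, for F tests the 5 with the largest range, and those called the same way in all 6 comparisons of a kind. Up to 2 genes per list were named for the pathway lists, with ple, Ddc, e, t, y, kkv and stw. Members and lists were chosen with earlier results of these data known. The alternatives were all 36 arrays, cyclic loess, a filter on dim probe sets, a fit on the arrays of a comparison alone, a replicate block, the mean of a gene's probe sets and each array left out. The fits were tested on simulated data. No 2 arrays held near-identical values.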

Additional observations from a re-analysis of the deposited data

Results flagged for a closer look

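The size of the G85R difference depended on age for some cuticle genes, by the interaction test of the limma fit. In MN the change from 5d to 45d was 0.71 for Cpr11B, -0.42 for Cpr49Ab, 0.33 for Cpr62Bb and 0.58 for Cpr66D. In glia it was 0.86 for Cpr47Ef, -0.51 for Cpr49Ab, 0.55 for Cpr66D and -0.42 for TwdlS. In MN+glia it was 0.99 for Cpr11B, -0.49 for Cpr49Ab, 0.45 for Cpr66D and 1.51 for Cpr72Ec. Cpr66D and Cpr49Ab passed this test under each driver, Cpr66D with a larger rise and Cpr49Ab with a larger fall in old flies.

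The G85R difference also differed between drivers. At 5d glia minus MN was 0.75 for Cpr11B and 0.78 for Cpr72Ec, and MN+glia minus MN was 0.51 for Cpr72Ec and -0.73 for TwdlE. At 45d glia minus MN was 0.93 for Cpr47Ef and 0.81 for Cpr72Ec. MN+glia minus MN at 45d was -0.72 for Cpr100A, -0.36 for Cpr62Bb and 1.90 for Cpr72Ec. MN+glia minus glia at 45d was -0.68 for Cpr47Ef and 1.09 for Cpr72Ec. Cpr72Ec, the corneal lens gene, was the cuticle gene that passed in most of these contrasts. What each depends on is given with the value in the text above, and the part of driven cells against genetic background cannot be told apart.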

How the results depend on the processing

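Over all passing comparisons of the 103 genes, 375 calls were followed and 230 stayed past the threshold under every setting, and 0 reversed. All 36 arrays lost 34 calls, cyclic loess 25, a fit on the arrays of the comparison alone 56, the mean of a gene's probe sets 4, and the replicate block 8, while the dim filter lost 0 of the 268 it could test. That filter keeps a probe set by its highest group mean and leaves 11261 probe sets to test. It could therefore hardly lose a call, and its 0 losses are no support for the calls. Of the 115 calls of pathway genes, 31 were lost under at least 1 setting and 0 reversed.

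A further requirement of a 1.5-fold change, chosen after seeing the data, left 5, 3 and 2 genes for G85R in MN, glia and MN+glia at 5d and 2, 4 and 3 at 45d. It left 9 and 10 genes for age in MN dSOD1 and MN G85R, 11 and 8 in glia, 11 and 9 in MN+glia, and 1, 1 and 2 for the change of the G85R difference with age in MN, glia and MN+glia. The share of all fly probe sets past this requirement was not computed, so these counts cannot be read as high or low for cuticle genes. With all 36 arrays 16 genes passed for G85R in MN+glia at 5d and 2 for its change with age in MN. A fit on the arrays of the comparison alone gave 4 genes for G85R in MN+glia at 5d, and 8 in glia and 2 in MN+glia for its change with age. With the dim filter, which tests fewer genes, 21 passed for age in glia G85R, and 19, 16 and 18 among drivers in dSOD1 5d, dSOD1 45d and G85R 5d flies. The share of all fly probe sets is not given for these settings, the replicate block or the fits without an array. These counts therefore show how far the calls moved with the setting, and cannot be read as high or low for cuticle genes. The cause of the other shifts was not tested.

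Leaving out 1 array at a time gave 7 to 17 genes for G85R in MN at 5d, 8 to 11 in glia at 5d, 4 to 10 in MN+glia at 5d, 15 to 25 for age in MN+glia G85R flies and 2 to 5 for the change of the G85R difference with age in MN. The replicate numbers did not pair the samples: of 34 pairs of deviations, 7 correlated above 0.1 (-0.30 to 0.40), and in 0 of 12 comparisons did every pair. With the replicate block 34 genes passed for age in MN dSOD1 flies, 32 in MN G85R flies and 13 for G85R in old glia flies, and no count moved by over 1.5 times. Another background correction and the slide as a block were not run, since array images and slides were not used here. Of the 103 genes, 66 are dim, where small differences sit near the background of the array.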
